A study of Mus musculus with 6 samples.

Results

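The glucocorticoid and stress responsive genes described here are 9 genes chosen by symbol: *Fam107a*, *Fkbp5*, *Sgk1*, *Tsc22d3*, *Zbtb16*, *Mt1*, *Mt2*, *Ddit4* and *Errfi1*. All 9 were listed among 13886 gene IDs, counted as genes below, with a log2 CPM (log2 of read counts scaled to a common library total). The values are for the ribosome-associated RNA of *Kiss1* cells of the medial amygdala (MeA) of female mice. The mice were Kiss1Cre+/Rpl22HA+/+ in both groups, so that cells with *Kiss1*-driven Cre recombinase carried a hemagglutinin (HA) tag on the ribosomal protein Rpl22, by which ribosomes and the mRNA on them were pulled down (RiboTag). All females were ovariectomized as adults at 8 weeks of age and pre-treated with estradiol (E2) for 4 days, followed by 7 days without it. The E2 group then received a new E2 capsule for 5 days, while the OVX group received none. Each group had 3 libraries, and each library held the MeA micropunches of 4 brains pooled, so that the spread between libraries is a spread between pools and not between single mice. No stressor or glucocorticoid treatment is named in the labels, and the question here is how the members' mRNA compared between OVX and E2.

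Glucocorticoids released from the adrenal cortex under stress bind the glucocorticoid receptor (*Nr3c1*) and the mineralocorticoid receptor (*Nr3c2*). The hormone-bound receptors enter the nucleus and bind paired half-sites known as glucocorticoid response elements, and the genes used here are among those that rise in many tissues after glucocorticoids, after other stresses, or both. *Mt1* and *Mt2* encode metallothioneins, small cysteine-rich proteins that bind zinc and copper, and are also induced by metals through metal response elements, which the zinc sensor *Mtf1* binds. In brain, *Mt1*, *Mt2* and *Fam107a* are also known as genes of astrocytes, so that levels of glial markers are given beside the members below.

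The start sites of the members were searched for the letters of these elements, and some of the windows that held them are shown. RefSeq promoter windows (GRCm38.p6, 250 bases before to 50 after a start site) were matched for 8 of the 9 members, with 18 windows in all, and *Zbtb16* had no match. The letters of a glucocorticoid response element (GNACA, any 3 bases, then TGTNC, which an androgen or mineralocorticoid receptor can also bind) were found in windows of 3 of the 8 genes, *Fam107a*, *Mt1* and *Sgk1*, against 0.537% of the 27025 genes with a window. The 4 windows that hold them include 2 of *Fam107a* that differ in start by only 2 bases. Of all 32851 windows 0.475% held these letters, as did 0.338% of the windows of genes in the log2 CPM table. In the windows shown here the bases in capitals mark the letters found on either strand, and the gene with its coordinates precedes each.
Fam107a, chr14:8309728-8310027, minus strand: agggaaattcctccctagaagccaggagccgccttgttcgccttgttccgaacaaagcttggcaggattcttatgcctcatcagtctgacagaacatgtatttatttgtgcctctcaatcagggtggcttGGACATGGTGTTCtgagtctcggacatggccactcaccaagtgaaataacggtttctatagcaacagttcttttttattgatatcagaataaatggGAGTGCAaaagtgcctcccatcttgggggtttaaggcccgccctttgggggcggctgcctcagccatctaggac
Mt1, chr8:94178839-94179138, plus strand: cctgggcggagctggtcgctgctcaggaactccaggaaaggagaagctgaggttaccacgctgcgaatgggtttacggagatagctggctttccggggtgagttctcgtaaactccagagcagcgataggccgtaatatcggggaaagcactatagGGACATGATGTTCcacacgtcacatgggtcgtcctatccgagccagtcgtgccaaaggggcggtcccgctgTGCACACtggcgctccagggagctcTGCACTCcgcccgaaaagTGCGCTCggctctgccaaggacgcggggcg
Mt2, chr8:94172368-94172667, plus strand: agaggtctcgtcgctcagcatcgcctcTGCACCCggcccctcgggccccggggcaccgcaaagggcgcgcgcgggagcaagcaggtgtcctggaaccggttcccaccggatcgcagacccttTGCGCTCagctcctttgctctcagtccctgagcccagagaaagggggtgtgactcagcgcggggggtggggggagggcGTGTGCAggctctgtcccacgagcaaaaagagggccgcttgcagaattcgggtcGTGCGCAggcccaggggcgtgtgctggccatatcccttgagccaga
Sgk1, chr10:21993640-21993939, plus strand: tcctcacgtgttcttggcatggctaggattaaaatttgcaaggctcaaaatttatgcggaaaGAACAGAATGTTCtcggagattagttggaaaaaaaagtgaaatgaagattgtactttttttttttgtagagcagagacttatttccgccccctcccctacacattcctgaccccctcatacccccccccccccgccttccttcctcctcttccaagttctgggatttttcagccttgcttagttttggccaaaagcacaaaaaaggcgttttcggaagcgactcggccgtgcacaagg
The glucocorticoid response element letters were GGACATGGTGTTC in *Fam107a*, beginning 120 bases before the start site, GGACATGATGTTC in *Mt1*, beginning 94 bases before it, and GAACAGAATGTTC in *Sgk1*, beginning 188 bases before the start of 1 of its 6 windows. The shorter runs in capitals are letters of a metal response element (TGCACNC or TGCGCNC, either strand, which do not overlap the longer ones). *Mt1* had 3 of these in its window and *Mt2* had 4, while *Fam107a* had 1, GAGTGCA on the opposite strand, 24 bases before the start site. *Ddit4* (TGCGCCC, 184 bases before the start site) and another window of *Sgk1* (GAGCGCA, 12 bases after it) also had 1 each. Those windows and the second one of *Fam107a* are not shown. At least 1 metal response element was found in 6 of the 18 member windows (33.3%), against 25.7% of all windows and 35.8% of the windows of genes in the log2 CPM table, and 3 or more were found in the windows of *Mt1* and *Mt2* only among the members and in 1.97% of all windows and 3.32% of those of genes in the table. Letters of an estrogen response element (GGTCA, any 3 bases, then TGACC) were found in 0 of the 18 member windows and in 0.07% of all windows. These are matches of letters in windows of 300 bases, and distances are counted from the RefSeq start site of each window. The *Mt1* window covers only its RefSeq start, and letters near any other start site would lie outside it. Which start site these cells used was not measured. Whether a receptor binds there was not measured.

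None of the 9 genes passed the test of E2 against OVX over all genes (limma, adjusted p under 0.05), which called 40 of the 13886 genes, or 0.288%. *Fam107a* lay nearest to the threshold, with a log2 CPM higher by 0.46 in E2 and an adjusted p of 0.0558. The study's own fit called this gene higher in E2, as did some alternative fits given below. The log2 difference E2 minus OVX was above 0 for 7 of the 9 members, against 51.1% of all genes, and the median over the members was 0.17, with a median of 0.00 over all genes. Unadjusted p-values were under 0.05 for 3 members (*Fam107a*, *Tsc22d3* and *Mt1*), as for 8.56% of all genes. In these 3 genes every E2 library lay above every OVX library, which held for 6.85% of all genes. In 0 members did every E2 library lie below every OVX library, against 6.82% of all genes, and in the other 6 the groups overlapped. Members were chosen with earlier results of these data known, so these counts set against all genes describe the list and do not test it.

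**Figure D1:**
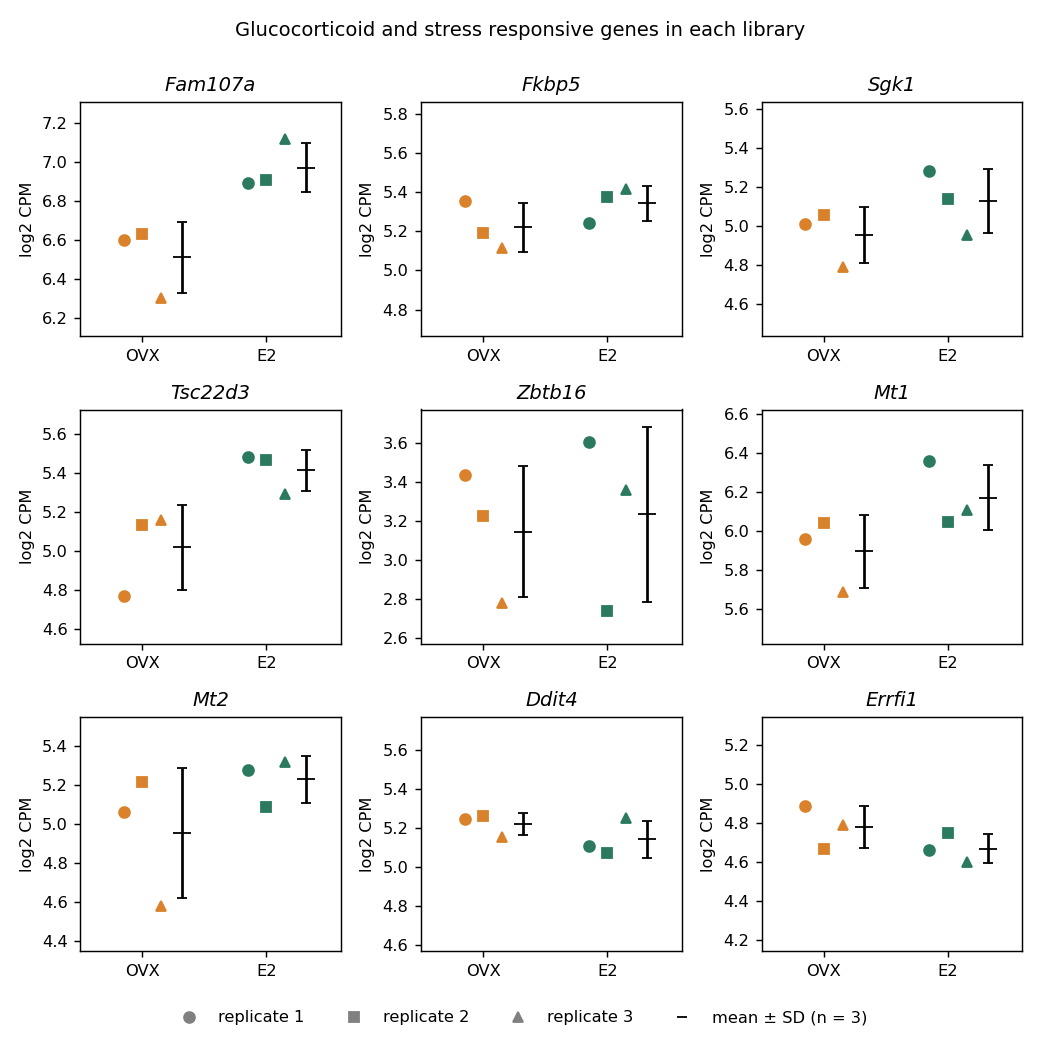
Log2 CPM of the 9 glucocorticoid and stress responsive genes in each OVX (orange) and E2 (green) library, with 1 panel per gene and a vertical axis of its own level in each. Symbols stand for replicates 1, 2 and 3 and bars for the mean ± SD (n = 3), and the groups are apart in *Fam107a*, *Tsc22d3* and *Mt1* and overlap in the other 6.

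*Fam107a* (ENSMUSG00000021750, chr14:8296274-8318023, minus strand, GRCm38) encodes an actin-bundling protein that glucocorticoids and stress induce in brain. Its log2 CPM was 6.60, 6.63 and 6.30 in OVX replicates 1 to 3 and 6.89, 6.91 and 7.12 in E2 replicates 1 to 3. All 3 E2 libraries stood above the OVX libraries, OVX replicate 3 was the lowest and E2 replicate 3 the highest. Group means were 6.51 ± 0.18 and 6.97 ± 0.12 (SD, n = 3), which correspond to 91.3 and 126 CPM, and the difference was 0.46 (SE 0.09, 95% interval 0.27 to 0.65, limma adjusted p = 0.0558, the 42nd smallest p of all genes), a 1.38-fold ratio. The study's limma and voom fit called *Fam107a* higher in E2, with an adjusted p of 0.0495. Here the call depended on the processing of the values. With voom weights, the alternative nearest to the limma and voom fit that the study's methods describe, the limma adjusted p passed the threshold and was 0.0495, and it was 0.0407 among genes with a mean log2 CPM of at least 1, 0.0403 on log2 of CPM plus 1 and 0.0497 on log2 of CPM plus 0.1. Leaving out OVX replicate 2 also gave an adjusted p under the threshold, 0.0320, while the other omissions gave up to 0.12 and the fit without a mean-variance trend gave 0.578. The difference itself kept its direction in each of these fits and was 0.35 to 0.52 when 1 library was left out.

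*Tsc22d3* (ENSMUSG00000031431, chrX:140539528-140600659, minus strand) encodes the glucocorticoid-induced leucine zipper, which restrains NF-kB and AP-1 activity. Log2 CPM was 4.77, 5.13 and 5.16 in OVX and 5.48, 5.47 and 5.29 in E2 replicates 1 to 3. The groups were apart, with OVX replicate 1 well below the others and E2 replicate 3 only a little above the OVX libraries. Means of 5.02 ± 0.22 and 5.41 ± 0.11 (SD, n = 3) gave a difference of 0.39 (SE 0.11, 95% interval 0.16 to 0.63, unadjusted p = 0.00283 and adjusted p = 0.253 in limma). It was 0.27 without OVX replicate 1 and at most 0.46 without any other library, with limma adjusted p-values of 0.163 to 0.656.

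*Fkbp5* and *Zbtb16* are among the genes most often used as readouts of the glucocorticoid receptor. *Fkbp5* (ENSMUSG00000024222, chr17:28399094-28517527, minus strand) encodes a co-chaperone of Hsp90 that lowers the receptor's affinity for hormone, closing a short feedback loop. Its log2 CPM was 5.36, 5.19 and 5.11 in OVX and 5.24, 5.38 and 5.42 in E2. The groups overlapped, since OVX replicate 1 lay above E2 replicate 1. Means were 5.22 ± 0.12 and 5.34 ± 0.09 (SD, n = 3), and the difference of 0.12 (SE 0.09) had a 95% interval of -0.07 to 0.32 and a limma adjusted p of 0.780, and it was 0.0696 to 0.19 with 1 library left out, lowest without OVX replicate 3. *Zbtb16* (ENSMUSG00000066687, chr9:48654297-48836222, minus strand) encodes a zinc finger transcription factor of the BTB family. Its log2 CPM was 3.43, 3.23 and 2.78 in OVX and 3.61, 2.74 and 3.36 in E2, so that both groups held a library near the bottom and the highest library was E2 replicate 1. It was the lowest of the members, with 192 to 368 rebuilt counts per library, and had the widest interval. The difference was 0.09 (SE 0.23, 95% interval -0.40 to 0.58, limma adjusted p = 0.960), and it turned to -0.0955 without OVX replicate 3 and to -0.0976 without E2 replicate 1.

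*Sgk1* (ENSMUSG00000019970, chr10:21882184-21999903, plus strand) encodes a kinase that both corticosteroid receptors induce and that acts on ion channels and transporters. Log2 CPM was 5.01, 5.06 and 4.79 in OVX and 5.28, 5.14 and 4.95 in E2. E2 replicate 1 was the highest and OVX replicate 3 the lowest, but E2 replicate 3 lay below OVX replicates 1 and 2, and so the groups overlapped. The difference was 0.17 (SE 0.11, 95% interval -0.05 to 0.40, limma adjusted p = 0.718) between means of 4.95 ± 0.14 and 5.12 ± 0.16 (SD, n = 3), and it was 0.0915 to 0.26 with 1 library left out, lowest without OVX replicate 3.

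The metallothionein genes *Mt1* (ENSMUSG00000031765, chr8:94179082-94180327) and *Mt2* (ENSMUSG00000031762, chr8:94172664-94173568) lie side by side on the plus strand of chromosome 8. *Mt1* had a log2 CPM of 5.96, 6.04 and 5.69 in OVX and 6.36, 6.05 and 6.11 in E2. The groups were apart by a narrow margin, E2 replicate 2 standing just above OVX replicate 2. Means were 5.90 ± 0.19 and 6.17 ± 0.17 (SD, n = 3), with a difference of 0.28 (SE 0.10, 95% interval 0.06 to 0.49, unadjusted p = 0.0164 and adjusted p = 0.429 in limma). *Mt2* had a log2 CPM of 5.06, 5.22 and 4.58 in OVX and 5.28, 5.09 and 5.32 in E2. OVX replicate 3 stood far below the other 5 libraries, which lay close together. The mean difference was also 0.28 but less certain (SE 0.14, 95% interval -0.02 to 0.57, limma adjusted p = 0.609). Without OVX replicate 3 the differences of *Mt1* and *Mt2* were 0.17 and 0.09. The log2 CPM of *Mt1* exceeded that of *Mt2* by 0.90, 0.82 and 1.11 in the OVX libraries and by 1.08, 0.96 and 0.79 in the E2 libraries, ranges that overlapped. In GENCODE release 21, 432 exonic bases of *Mt2* overlap the antisense gene Gm45774, and since the library was unstranded, reads of the 2 genes cannot be told apart there. Of the 437 stretches of 75 bases in the longest *Mt2* transcript, 141 (32.3%) also occur in Gm45774, whereas 0 of those of *Mt1* occur in another gene.

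*Ddit4* and *Errfi1* were the members with lower means in E2. *Ddit4* (ENSMUSG00000020108, chr10:59949669-59951834, minus strand), which glucocorticoids, hypoxia and DNA damage induce and whose product restrains mTORC1, had a log2 CPM of 5.24, 5.26 and 5.16 in OVX and 5.10, 5.07 and 5.25 in E2. E2 replicate 3 lay within the OVX range and the other two E2 libraries below it. The difference of -0.08 (SE 0.08, 95% interval -0.26 to 0.10, limma adjusted p = 0.872) had the smallest SE of the 9 genes, and it was -0.13 to -0.0435 with 1 library left out. *Errfi1* (ENSMUSG00000028967, chr4:150853919-150868892, plus strand), an inhibitor of EGF receptor family kinases, had a log2 CPM of 4.89, 4.67 and 4.79 in OVX and 4.66, 4.75 and 4.60 in E2. The groups overlapped by OVX replicate 2 and E2 replicate 2, and the difference was -0.11 (SE 0.10, 95% interval -0.32 to 0.10, limma adjusted p = 0.821), or -0.17 to -0.059 with 1 library left out. The upper ends of these 95% intervals were 0.10 for both genes, and the intervals cover the spread between pools only.

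**Figure D2:**
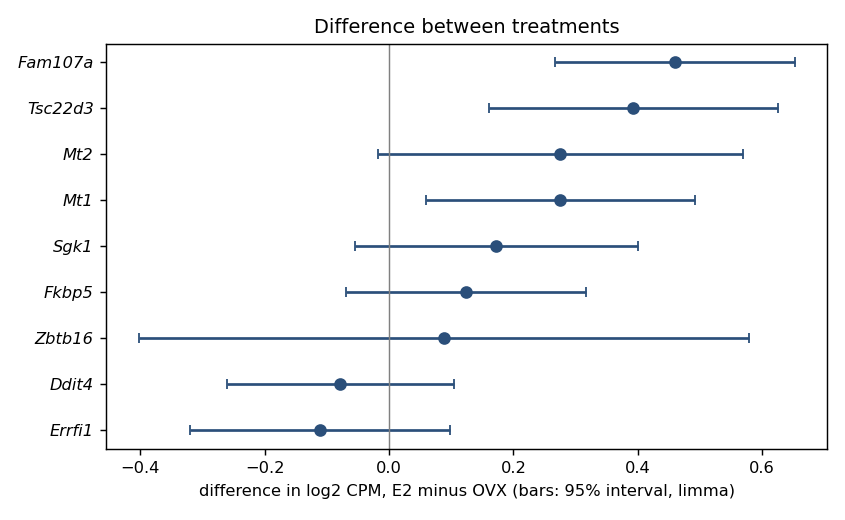
Difference in log2 CPM, E2 minus OVX, of each member (point) with its 95% interval from limma (bar), in order of size. The intervals of *Fam107a*, *Tsc22d3* and *Mt1* lie above 0 and those of the other 6 genes include 0, and none of the 9 passed the adjusted threshold.

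Much of the spread among the members lay between libraries of 1 group. OVX replicate 3 was the lowest OVX library for 7 of the 9 genes and the lowest of all 6 libraries for 5 of them, with a median deviation from the gene means of -0.25. E2 replicate 1 was the highest library for 4 members and E2 replicate 3 for 3, with median deviations of 0.19 and 0.08. Without OVX replicate 3 the difference of *Fam107a* was 0.35, with a limma adjusted p of 0.12. The scaled library size of OVX replicate 3 was 28.1M reads, close to the 28.3M of OVX replicate 1, in a range of 28.1M to 34.2M over the 6 libraries. Its summed endothelial and mural markers were the lowest of the 6 libraries, 7.30 in log2 CPM against 7.52 to 8.21 in the others. Its oligodendrocyte markers were also the lowest, 10.62 against 10.75 to 11.24. It was not the lowest in the other marker sets, with astrocyte markers at 10.77 against 10.72 in OVX replicate 1. Whether these levels play a part in the members' lower values was not tested.

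**Figure D3:**
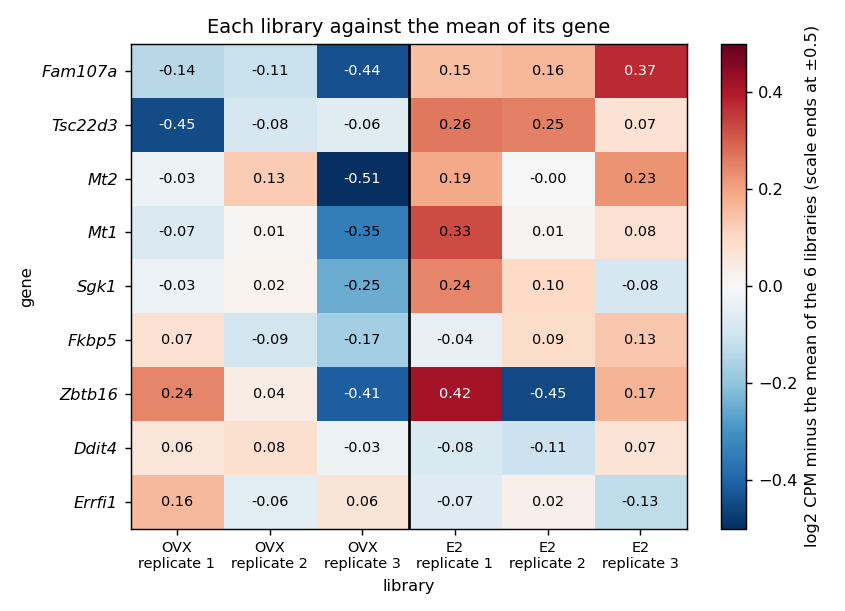
Log2 CPM of each member in each library minus the mean of its 6 libraries (colour and printed value, with the colour scale ending at ±0.5 and OVX to the left of the line). OVX replicate 3 is the lowest library for 5 of the genes, and *Zbtb16* runs from -0.45 to 0.42 within the E2 group alone.

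Over the 6 libraries the members did not share a single pattern. Pearson correlations of log2 CPM were highest for *Sgk1* with *Mt1* (r = 0.893) and for *Mt1* with *Mt2* (0.879), followed by *Fam107a* with *Mt2* (0.843), *Fkbp5* (0.78) and *Mt1* (0.77). They were lowest for *Tsc22d3* with *Ddit4* (-0.699) and *Errfi1* (-0.67). *Fkbp5* and *Tsc22d3*, both often read as receptor targets, had an r of 0.0422. These values describe 6 libraries that share the treatment groups and OVX replicate 3, and no test was made of them. The search for the gene with the pattern most like each member's was limited to genes with a mean log2 CPM of at least 1. Those with the highest r over 6 libraries were *Plod1* for *Fam107a* (0.989), *Hmgb1* for *Tsc22d3* (0.991), *Ccl27a* for *Fkbp5* (0.988), *Ttll3* for *Zbtb16* (0.986), *Ccdc166* for *Sgk1* (0.99), *Acot1* for *Mt1* (0.989), *Irf9* for *Mt2* (0.994), *Ccnd1* for *Ddit4* (0.999) and *Pcbp3* for *Errfi1* (0.996). They were chosen for that r from all genes at or above that level, and no function is read from it.

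Levels were compared between members per kilobase of the longest transcript, as the mean of 6 libraries. *Mt2* and *Mt1* had the highest levels, 66.7 and 60.4 CPM per kilobase, and their ranges over libraries overlapped. *Fam107a* followed at 32.1, *Ddit4* at 20.7, *Tsc22d3* at 12.9, *Sgk1* at 10.6, *Fkbp5* at 10.1, *Errfi1* at 8.70 and *Zbtb16* at 1.78 CPM per kilobase. Ranges over libraries did not overlap between *Mt1* and *Fam107a*, *Fam107a* and *Ddit4*, *Ddit4* and *Tsc22d3*, or *Errfi1* and *Zbtb16*, but from *Tsc22d3* down to *Errfi1* each gene overlapped the next. The place of *Mt1* depends on its gene model, since its longest transcript is a single exon of 1085 bases, and with its longest transcript of more than 1 exon, 633 bases, it stood at 103 CPM per kilobase, above *Mt2*. The longest *Tsc22d3* transcript is not protein-coding. With its longest protein-coding transcript, 1974 bases, it stood at 18.8 CPM per kilobase, and its range then overlapped that of *Ddit4*. With the union of all exons *Errfi1* moved ahead of *Sgk1* and *Fkbp5*, and the ranges of *Fam107a* and *Ddit4* overlapped. For scale, the receptors *Nr3c1* and *Nr3c2* stood at 11.9 and 7.46 CPM per kilobase, and the neuronal metallothionein *Mt3* at 238.

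**Figure D4:**
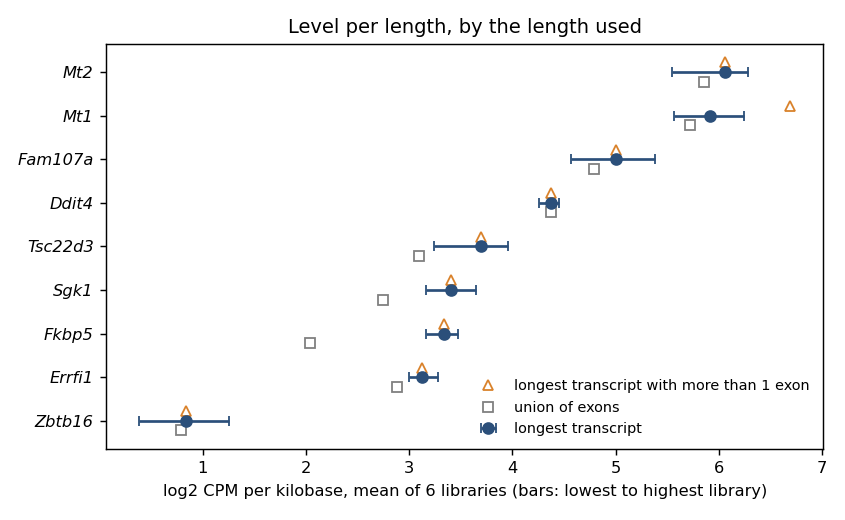
Level of each member as log2 CPM per kilobase, mean of the 6 libraries. Filled points use the longest transcript, with bars from the lowest to the highest library, triangles the longest transcript with more than 1 exon and squares the union of exons, and the triangle of *Mt1* lies above every value of *Mt2*.

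The receptors upstream of these genes had overlapping levels in OVX and E2. *Nr3c1* had a log2 CPM of 6.09, 6.36 and 6.35 in OVX and 6.24, 6.27 and 6.23 in E2, all E2 libraries falling between the OVX ones. Its difference was -0.03 (SE 0.08, 95% interval -0.19 to 0.14, limma adjusted p = 0.969). *Nr3c2* had a log2 CPM of 5.42, 5.62 and 5.21 in OVX and 5.54, 5.36 and 5.64 in E2, with overlapping groups and a difference of 0.10 (SE 0.11, limma adjusted p = 0.866). Of the 11 listed genes of corticosteroid receptors and their handling, out of 12 on the list, 0 passed the test (0.288% of all genes). An unadjusted p under 0.05 was found for 0 of them (8.56% of all genes). The median difference was 0.06, with 8 genes higher and 3 lower. *Hsd11b2*, which inactivates corticosterone, was not listed. The Hsp90 co-chaperone *Ptges3* had all E2 libraries above all OVX libraries with a difference of 0.13 (SE 0.06, limma adjusted p = 0.60), the transporter *Abcb1b* differed by 0.45 (SE 0.31) and the chaperone *Hsp90aa1* by 0.06 (limma adjusted p = 0.871). *Fkbp4*, which competes with *Fkbp5* for the receptor complex and was named after its value was seen, differed by 0.03 (limma adjusted p = 0.936).

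Among 20 listed genes of a further list of 21 glucocorticoid-induced genes, 1 passed the test (0.288% of all genes), the median difference was 0.21, and 15 were higher (51.1% of all genes) and 5 lower in E2. *Rasd1*, a small GTPase first described as dexamethasone-induced, had a log2 CPM of 2.69, 2.75 and 2.77 in OVX and 4.00, 3.99 and 3.68 in E2. It rose by 1.15 (SE 0.15, limma adjusted p = 0.0041), and the limma adjusted p was 0.00611 to 0.043 when 1 library was left out and 0.175 without the mean-variance trend. The study's own fit also called *Rasd1* higher in E2. Unadjusted p-values were under 0.05 for 9 of the 20 genes, 7 higher and 2 lower, against 8.56% of all genes. In 7 of the genes all E2 libraries lay above the OVX ones (6.85% of all genes) and in 1 all lay below (6.82%). This list too was chosen with earlier results of these data known, so its counts describe it and do not test it. The sulfotransferase gene *Sult1a1* had a log2 CPM of 1.30, 1.54 and 1.17 in OVX and 2.69, 2.36 and 2.18 in E2, a difference of 1.08 (SE 0.25, limma adjusted p = 0.127), and 61 of its 1507 exonic bases overlap *Sgf29* on the opposite strand, where unstranded reads cannot be told apart. *Klf9*, a transcription factor with glucocorticoid response elements upstream, differed by 0.21 (SE 0.07, limma adjusted p = 0.372), and *Nfkbia*, the NF-kB inhibitor, by 0.32 (SE 0.11, limma adjusted p = 0.397). The 2 lower genes with an unadjusted p under 0.05, named here after their values were seen, were *Pdk4*, a brake on glucose oxidation (-0.57), and the kinase phosphatase *Dusp1* (-0.40), with limma adjusted p-values of 0.463 and 0.534. The circadian gene *Per1*, also named after its value was seen, differed by -0.04. *Lcn2* was not listed.

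**Figure D5:**
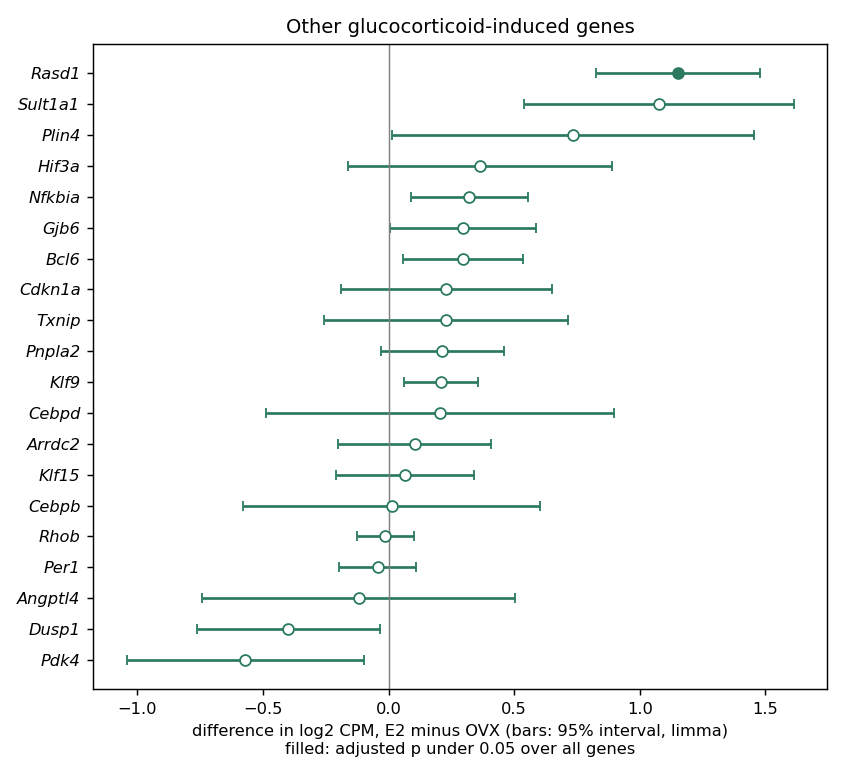
Difference in log2 CPM, E2 minus OVX, of the 20 listed genes of the further glucocorticoid-induced list (points) with 95% intervals from limma (bars). The filled point, *Rasd1* at 1.15, is the gene past the adjusted threshold, and the interval of *Dusp1* (-0.76 to -0.03) and that of *Pdk4* lie below 0.

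Genes that act with single members were read from the same fit. Of the 6 listed genes of metallothionein and zinc handling, 0 passed the test (0.288% of all genes), 2 were higher and 4 lower. Among the 6, 1 had an unadjusted p under 0.05 (8.56% of all genes). In 1 all E2 libraries lay above the OVX ones (6.85% of all genes), and *Mt4* was not listed. *Mt3*, the metallothionein of neurons and astrocytes, had a log2 CPM of 6.92, 6.91 and 6.94 in OVX and 7.15, 7.0 and 7.03 in E2, which left the groups apart with a difference of 0.14 (SE 0.06, limma adjusted p = 0.544). The metal-responsive factor *Mtf1* and the zinc transporters *Slc39a10* and *Slc30a3* differed by -0.13, -0.13 and -0.23, of which *Mtf1* was -0.061 without OVX replicate 1 and -0.0596 without E2 replicate 2, and *Slc30a3* was -0.0672 without E2 replicate 2. Of the 6 genes of the SGK family and its substrates, 0 passed the test and the median difference was 0.03. An unadjusted p under 0.05 was found for 1 of them, and in 2 all E2 libraries lay above the OVX ones. *Ndrg2*, a phosphorylation target of Sgk1 that is abundant in astrocytes, had all E2 libraries (8.34, 8.28 and 8.40) above the OVX libraries (8.07, 8.24 and 8.02) and a difference of 0.23 (SE 0.06, limma adjusted p = 0.260). The ubiquitin ligase *Nedd4l* (0.12, limma adjusted p = 0.625) also had its groups apart.

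Of the 14 listed genes of the integrated stress response and brakes on mTORC1, the setting of *Ddit4*, 0 passed the test. Over all genes 0.288% passed and 8.56% had an unadjusted p under 0.05, which held for 0 of the 14. The median difference was 0.00, with 7 higher and 7 lower. *Sesn1*, a stress-induced mTORC1 inhibitor, had all E2 libraries below all OVX libraries with a difference of -0.14 (limma adjusted p = 0.60), and *Ddit3*, *Sesn2* and the paralog *Ddit4l* differed by -0.17, 0.14 and -0.16 with overlapping groups. *Atf3* and *Trib3* were not listed. The 4 receptors that Errfi1 binds, *Egfr*, *Erbb2*, *Erbb3* and *Erbb4*, differed by -0.19, -0.19, -0.14 and 0.10, and 0 passed the test. Of 8 paralogs of members 0 passed, and *Zbtb18* had the smallest p, with a difference of -0.23 (SE 0.08, limma adjusted p = 0.429).

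Markers of other cells were measured in the same libraries, since glia also express several members. *Kiss1*, which drives the Cre and which E2 raises, was at 2.29, 1.82 and 1.13 log2 CPM in OVX and 3.72, 3.80 and 3.45 in E2 under the gene ID ENSMUSG00000115958 (limma adjusted p = 0.00475). Under its other ID, ENSMUSG00000116158, *Kiss1* was at -5.82, -0.65 and 0.10 in OVX and 2.97, 3.18 and 2.65 in E2 (limma adjusted p = 0.0942). The -5.82 of OVX replicate 1 stands for a rebuilt count of 0 and is the floor of that library. All 8 astrocyte markers were listed, and all 8 had higher means in E2 (51.1% of all genes). Of these, 0 passed the test (0.288% of all genes) and 2 had an unadjusted p under 0.05 (8.56% of all genes). The 2 were *Aldoc* (0.32, limma adjusted p = 0.117) and *Gja1* (0.18). The summed level of the 8 was 10.72, 11.04 and 10.77 log2 CPM in OVX and 11.06, 10.85 and 11.11 in E2 replicates 1 to 3, so that the groups overlapped. *Slc1a2*, with a mean log2 CPM of 9.87, was the highest of the 8 and weighs most in this sum. In 1 of the 8, *Aldoc*, every E2 library lay above every OVX library (6.85% of all genes). Summed oligodendrocyte markers were at 10.62 to 11.11 in OVX and 10.75 to 11.24 in E2, with 7 of 7 listed and 6 higher, and endothelial and mural markers at 7.30 to 8.21 and 7.52 to 7.93, with 7 of 7 listed and 5 higher. Neuronal markers, 5 of 5 listed, were at 12.01 to 12.11 and 12.02 to 12.15. Erythroid genes, 4 of 5 listed, were at 6.91 to 7.83 in OVX and 8.13 to 8.80 in E2. Of them 2 passed the test, against 0.288% of all genes. The 6 markers of excitatory neurons of other forebrain areas, all listed, were at 9.73 to 10.09 in OVX and 9.34 to 9.71 in E2. All 6 had lower means and 4 an unadjusted p under 0.05, against 8.56% of all genes. The part of these markers in the differences of *Fam107a*, *Tsc22d3*, *Mt1* and *Rasd1* was not tested. In pulldowns from pooled micropunches, mRNA of tagged cells and mRNA carried over from other cells cannot be told apart here, nor can fewer cells of a type and less RNA per cell.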

How the data were processed

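Ribosome-associated mRNA of MeA *Kiss1* cells was sequenced from 3 OVX and 3 E2 pools on an Illumina platform with unstranded, polyA-enriched libraries and 75-base single reads. The authors trimmed reads with Trimmomatic 0.38 after FastQC 0.11.8, aligned them with STAR 2.6.0a, quantified them with RSEM on GRCm38, limited genes to protein-coding ones with a minimum CPM, and deposited log2 CPM values made with TMM scaling and voom. A second deposited table of the authors' own OVX and E2 comparison (fold changes, p-values and group means) was not used. From the deposited log2 CPM, limma 3.58.1 in R 4.3.3 was run here on 13886 genes with a mean-variance trend and no covariate. P-values were 2-sided, with Benjamini-Hochberg adjustment over all genes and a threshold of 0.05. The fit was tested on simulated data with shifts larger than any member's difference. That test does not cover differences of the members' size. Every difference is E2 minus OVX in log2 CPM, and summed marker levels are log2 of summed CPM. Counts and scaled library sizes (28.1M to 34.2M) were rebuilt on the premise that each library's lowest value stood for 0 reads, which voom offsets by 0.5. The member counts were 192 to 4496 per library, and intervals cover the spread between pools only.

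Named genes were the 9 members, of each wider list every gene past the threshold and up to 4 with the smallest p, with the exceptions stated beside them, *Nr3c1*, *Nr3c2*, *Mt3*, and each member's most alike gene with a mean log2 CPM of at least 1. Members and lists were chosen with earlier results of these data known. Positions and lengths came from GENCODE mouse release 21 (GRCm38) and promoters from RefSeq. Replicate numbers were not taken as pairs, since same-numbered libraries did not deviate together (r of -0.0213, -0.121 and -0.083). Alternatives were voom weights, no trend, other scalings, filters and offsets, a replicate block and each library left out.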

Additional observations from a re-analysis of the deposited data

How the results depend on the processing

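The count of members past the threshold was 0 in the main fit made here. It was 1 (*Fam107a*) with voom weights, with a mean log2 CPM of at least 1, with log2 of CPM plus 1 and with log2 of CPM plus 0.1. With 1 library left out it was 0 to 1, the 1 being *Fam107a* without OVX replicate 2. Without the mean-variance trend the counts were 0 over all genes (1017 with an unadjusted p under 0.05), against 40, and 0 over the wider lists, against 1 (*Rasd1*, limma adjusted p 0.175). Over all genes the count was 20 to 66 with 1 library left out: 21 without OVX replicate 1, 26 without E2 replicate 1, 20 without E2 replicate 2 and 66 without E2 replicate 3. A replicate block, although the shared numbers did not pair the libraries, gave 35 calls over all genes, 0 among the members and 1 in the wider lists, and *Fam107a* had a limma adjusted p of 0.138 in the block fit. The order of levels per kilobase kept 6 of 9 ranks with the union of exons, and 7 with transcripts of more than 1 exon and 9 with protein-coding transcripts, both alternatives chosen after the data were seen. The difference changed sign with 1 library left out for *Zbtb16* (-0.0976 to 0.34), *Nr3c1* (-0.11 to 0.0213), *Nr3c2* (-0.0038 to 0.20), *Ddit4l* (-0.31 to 0.0015), *Fam107b* (-0.30 to 0.0681) and *Zbtb20* (-0.15 to 0.0472). The cause of these changes was not tested. The other 553 values of single genes kept their direction and their side of the threshold. With 3 pools per group the median SE of a member's log2 difference was 0.10, and a group with a library left out held 2.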

Other observations

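Other gene groups fixed beside the members also differed in level between the libraries. All 7 immediate early genes were listed, 6 of them with lower means in E2, at a summed level of 8.44 to 8.76 log2 CPM in OVX and 8.19 to 8.63 in E2. Of the 7, 0 passed the test (limma, 0.288% of all genes) and 1 had an unadjusted p under 0.05 (8.56% of all genes). The 4 choroid plexus markers had lower means in E2, with summed levels of 9.41 to 10.05 in OVX and 8.61 to 9.97 in E2. Of these 4, 0 passed the limma test (0.288% of all genes) and 2 had an unadjusted p under 0.05 (8.56% of all genes). The 6 microglial markers, 2 with higher and 4 with lower means, were at 6.77 to 7.13 and 6.75 to 6.97.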
